A study of Ovis aries with 9 samples.

Results

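The genes described here were 10 genes of leptin, insulin and insulin-like growth factor (IGF) signalling in the sheep hypothalamus. They were the leptin receptor LEPR, the receptors INSR and IGF1R, the ligands IGF1 and IGF2, the growth hormone receptor GHR, the binding proteins IGFBP2 and IGFBP5, and the receptor substrates IRS1 and IRS2. A gene was included by its symbol in the RefSeq annotation of the sheep, and its level was the sum of all its RefSeq mRNA transcripts. The 10 genes held 39 of the 76682 annotated mRNA transcripts, out of 21284 genes.

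Hypothalamic tissue was taken from 9 Dolang ewes kept under the same conditions, and 1 poly-A selected RNA library was sequenced for each animal. Prepuberty was represented by 3 calm ewes with a median age of 120 days that refused mounting, puberty by 3 ewes of 130 days that were restless and let rams mount for the first time, and postpuberty by 3 ewes of 150 days that had become calm again. The ages rose with the stage, so age and stage cannot be told apart. The labels name no treatment, and the libraries are named by stage and replicate number (Prepuberty 1 to Postpuberty 3).

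Leptin is released by fat cells in proportion to energy stores and acts in the hypothalamus through LEPR, a cytokine-type receptor that signals by JAK2 and STAT3. Insulin, IGF1 and IGF2 bind the receptor tyrosine kinases INSR and IGF1R, which phosphorylate IRS1 and IRS2 and thereby switch on the PI3K and AKT pathway, while IGF-binding proteins hold the free ligands in check. Growth hormone acts through GHR and raises IGF1 in many tissues, and these hormones are known for informing the hypothalamus of growth and nutrition before puberty.

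Levels are given in FPKM as deposited by the authors, that is, sequenced fragments per unit of transcript length and per unit of library size. Puberty 2 stood apart from the other 8 libraries. Its FPKM summed to 599726, against 359588 to 398109 in the others, 15577 genes were above 0 against 17180 to 17763, and 32 genes were listed at 0 there although they reached 10 FPKM in all 8 others. Of the 9 genes of the group that were tested, 7 had their lowest FPKM in Puberty 2 (GHR, IGF1, IGF1R, IGF2, IGFBP5, INSR and IRS1), and so had 51.9% of all 14238 genes tested. Counts of calls are therefore given with all 9 libraries and without Puberty 2, as are the differences printed for the 9 genes that involve puberty.

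The labelled tissue was checked against 16 genes of hypothalamic neurons. Their summed FPKM ran from 30.9 in Postpuberty 1 to 179 in Postpuberty 3, and SST, which encodes somatostatin, was the most abundant, while CRH alone gave 118 of the 168 in Prepuberty 1. AVP, OXT and HCRT, genes of peptides made in the hypothalamus, were low, with means of 1.48, 1.32 and 0.673 FPKM over the 8 libraries other than Puberty 2 (CRH and these 3 were named after their values were seen). Over the same libraries TRH, NPY and POMC had means of 10.5, 7.94 and 7.17 FPKM, CARTPT 2.97 and TAC3 1.46. All of them were above 0 in every library, and they too were named after their values were seen. GNRH1 was listed at 0 in all 9 libraries and GHRH in 8 of them, while AGRP, PMCH, KISS1 and GAL were each at 0 in 1 to 3 libraries.

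Across the 8 libraries other than Puberty 2, the group covered a wide range of mean levels. IGFBP2 was the most abundant with 20.9 FPKM ± 12.7 (SD, n = 8), followed by IGF2 with 9.05 ± 8.92 and IGF1R with 7.80 ± 0.764. IGFBP5 had 6.70 ± 2.34, IRS2 5.94 ± 1.63 and INSR 4.16 ± 0.746. Below 2 FPKM were IRS1 with 1.79 ± 0.421, GHR with 1.48 ± 0.907, IGF1 with 0.775 ± 0.292 and LEPR with 0.00212 ± 0.00600. The order was the same with all 9 libraries and when each library was rescaled to an equal total. IGFBP2 exceeded IGF2, INSR exceeded IRS1 and IGF1 exceeded LEPR in 8 of 8 libraries. The other neighbours in this order changed places between libraries, the upper gene being higher in only 4 to 6 of the 8, so that IGF2, IGF1R, IGFBP5, IRS2 and INSR are not ranked against each neighbour beyond their spread.

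**Figure D1:**
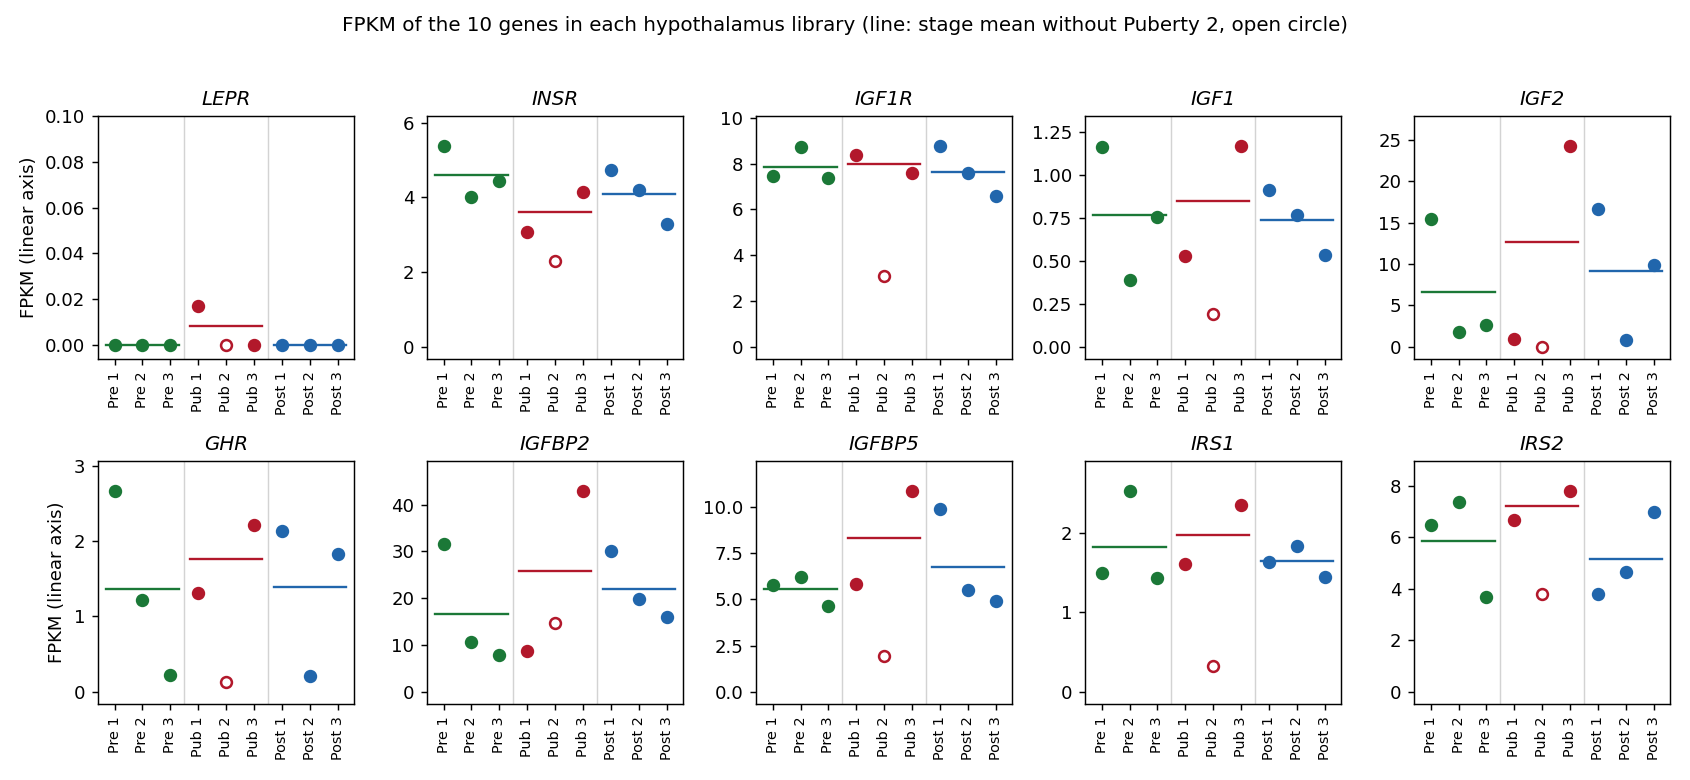
FPKM of the 10 genes in the 9 hypothalamus libraries, each panel on its own linear axis, with 1 point per animal coloured by stage and a line at the stage mean without Puberty 2 (open circle). The stages overlap in every panel, IGF2 runs from 0.850 to 24.2 FPKM in the 8 filled circles, and IGF1R stays between 6.56 and 8.76.

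LEPR (RefSeq gene 443264, chr1:41150778-41249768 of ARS-UI_Ramb_v3.0) was listed at 0 in 8 of the 9 libraries. Its single annotated transcript in the table, NM_001009763.1, had an FPKM of 0.0170 in Puberty 1. The gene did not pass the filter of a mean of 0.5 FPKM in any stage and was not tested, and an FPKM of 0 can also stand for a failed estimate or for reads given to assembled transcripts without a gene name, which was not tested. The neighbouring steps of the leptin pathway were measured at higher levels. PTPN11, a phosphatase that docks on the receptor, had 43.1 FPKM ± 8.11 (SD, n = 8), LEPROTL1, a relative of the LEPR overlapping transcript LEPROT, had 19.1 ± 1.25, and JAK2, the kinase bound to the receptor, had 1.82 ± 0.613. LEP, the gene of leptin itself, was likewise listed at 0 in all libraries but Puberty 1, and it was not tested.

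INSR (gene 443431, chr5:13788125-13936266) encodes the insulin receptor. The 3 prepuberty animals had an FPKM of 5.37, 4.01 and 4.45, the 3 puberty animals 3.07, 2.30 and 4.16, and the 3 postpuberty animals 4.75, 4.21 and 3.28. Prepuberty 1 was highest and Puberty 2 lowest, and Puberty 3 lay above Prepuberty 2, so the stages overlapped. With all 9 libraries, log2(FPKM + 1) was 0.44 higher in prepuberty than in puberty (SE 0.27, 95% interval -0.17 to 1.05), with an adjusted p of 0.838 by limma. No other difference of the group had a smaller unadjusted p with all 9 libraries. Without Puberty 2 the difference was 0.29 (interval -0.21 to 0.78). With all 9 libraries it was 0.69 when each library was rescaled to an equal total, and 0.75 for the leading transcript alone. On equal totals the median over all genes also rose, from 0.14 to 0.34. The leading transcript was at 0 in Puberty 2, and neither value is given without that library. On equal totals the prepuberty and puberty libraries of INSR did not overlap, as in 4.87% of all genes. Differences on this scale understate the change of genes with a low FPKM.

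IGF1R (gene 443515, chr18:7199205-7503235) encodes the type 1 IGF receptor. Its FPKM was 7.44, 8.74 and 7.35 before puberty, 8.37, 3.07 and 7.57 at puberty, and 8.76, 7.60 and 6.56 after it, in the order of the replicate numbers. Apart from Puberty 2 the libraries lay close together, and the highest was 1.33 times the lowest. With all 9 libraries the difference of prepuberty and puberty was 0.36 (interval -0.40 to 1.12, adjusted p = 0.838 by limma). Without Puberty 2 it was -0.02 (interval -0.42 to 0.38), and the difference of prepuberty and postpuberty was 0.04 (interval -0.32 to 0.40). Between puberty and postpuberty it was -0.32 with all 9 libraries (interval -1.08 to 0.44) and 0.06 without Puberty 2 (interval -0.34 to 0.46). Without Puberty 2 its intervals were the narrowest of the group.

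IGF1 (gene 443318, chr3:171766875-171847317) encodes IGF1, the ligand of IGF1R that circulates mainly from the liver and is also made locally. Its FPKM was low, with 1.16, 0.386 and 0.752 before puberty, 0.524, 0.191 and 1.17 at puberty, and 0.910, 0.764 and 0.531 after it. Puberty 3 and Prepuberty 1 were highest, Puberty 2 and Prepuberty 2 lowest, and the postpuberty libraries lay between them, so the stages overlapped. The difference of prepuberty and puberty was 0.14 with all 9 libraries (interval -0.47 to 0.75) and -0.06 without Puberty 2 (interval -0.66 to 0.53). Between prepuberty and postpuberty it was 0.01 (SE 0.27, interval -0.60 to 0.62 with all 9 libraries).

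IGF2 (gene 443325, chr21:45774756-45802762) encodes the fetal-type IGF, which in the adult brain is known mainly from the meninges, the choroid plexus and blood vessels. The prepuberty animals had 15.5, 1.74 and 2.61 FPKM, the puberty animals 0.975, 0 and 24.2, and the postpuberty animals 16.6, 0.850 and 9.90. The 4 high libraries were Puberty 3, Postpuberty 1, Prepuberty 1 and Postpuberty 3, and each stage held at least 1 high and 1 low library. Among the 8 libraries other than Puberty 2, where it was listed at 0, the highest was 28.5 times the lowest. The largest stage difference, puberty against postpuberty with all 9 libraries, was -0.94 with an interval of -3.84 to 1.95 and an adjusted p of 0.791 by limma, and without Puberty 2 it was -0.0044 (interval -3.21 to 3.21). The intervals were so wide that changes of several-fold in either direction could not be told from none.

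GHR (gene 443333, chr16:32067877-32366167) encodes the growth hormone receptor. Its FPKM was 2.66, 1.22 and 0.225 before puberty, 1.31, 0.129 and 2.21 at puberty, and 2.14, 0.213 and 1.83 after it. The 4 highest libraries were the same as for IGF2, Postpuberty 2 was again the lowest of the 8, and the stages overlapped. The difference of prepuberty and puberty was 0.08 with all 9 libraries (interval -1.14 to 1.31) and -0.34 without Puberty 2 (interval -1.63 to 0.95). The growth hormone branch downstream of it held STAT5A with 6.54 FPKM ± 1.69 (SD, n = 8) and STAT5B with 8.30 ± 0.934, the transcription factors that GHR activates.

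IGFBP2 (gene 443469, chr2:218627894-218657329) encodes a binding protein found in brain and cerebrospinal fluid. The prepuberty animals had 31.5, 10.7 and 7.93 FPKM, the puberty animals 8.67, 14.7 and 42.8, and the postpuberty animals 30.0, 19.9 and 15.9. Puberty 3, Prepuberty 1 and Postpuberty 1 were the 3 highest libraries, 1 in each stage, and Puberty 2 lay within the range of the others. The difference of prepuberty and puberty was -0.32 with all 9 libraries (interval -1.73 to 1.08) and -0.45 without Puberty 2 (interval -2.18 to 1.27). Between prepuberty and postpuberty it was -0.56 (SE 0.62, interval -1.97 to 0.85, adjusted p = 1 by limma), which became -1.12 without Prepuberty 1 and -0.19 without Prepuberty 3.

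IGFBP5 (gene 443133, chr2:218666725-218689628) lies next to IGFBP2, with 9395 bases between the annotated end of IGFBP2 and the start of IGFBP5, and encodes a binding protein that is also held in the extracellular matrix. It had 5.76, 6.23 and 4.64 FPKM before puberty, 5.81, 1.94 and 10.9 at puberty, and 9.89, 5.51 and 4.91 after it. Puberty 3 and Postpuberty 1 were high and Puberty 2 was low, with the remaining 6 libraries between 4.64 and 6.23. The difference of prepuberty and puberty was 0.07 with all 9 libraries and -0.46 without Puberty 2 (interval -1.25 to 0.32, adjusted p = 1 by limma). Prepuberty 1, a high library for IGFBP2, was not among the high ones for its neighbour.

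IRS1 (gene 101102293, chr2:229012156-229077786) encodes a docking protein of both receptors. The prepuberty animals had 1.50, 2.52 and 1.43 FPKM, the puberty animals 1.60, 0.326 and 2.35, and the postpuberty animals 1.64, 1.84 and 1.45. Prepuberty 2 and Puberty 3 were highest, and Puberty 2 was far below the other 8 libraries. The difference of prepuberty and puberty was 0.29 with all 9 libraries (interval -0.50 to 1.09) and -0.09 without Puberty 2 (interval -0.62 to 0.44).

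IRS2 (gene 106991367, chr10:84003686-84034222) encodes the related docking protein whose loss in mice is known to raise food intake and to disturb reproduction. Its FPKM was 6.49, 7.38 and 3.70 before puberty, 6.66, 3.79 and 7.79 at puberty, and 3.82, 4.66 and 7.01 after it. Prepuberty 3, Puberty 2 and Postpuberty 1 were low while each stage also held a high library, so the stages overlapped. The difference of puberty and postpuberty was 0.19 with all 9 libraries (interval -0.61 to 0.98) and 0.45 without Puberty 2 (interval -0.28 to 1.17, adjusted p = 1 by limma). No other difference of the group had a smaller unadjusted p without Puberty 2.

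In the comparison of prepuberty and puberty, limma called 0 of the 9 genes tested at an adjusted p below 0.05 and an absolute difference of at least 1, against 0% of all 14238 genes. At an unadjusted p below 0.05 there were 0 of the 9 genes and 259 of all genes. Genes of the group whose prepuberty libraries all lay above or all below the puberty libraries numbered 0 of 10, against 5.16% of all genes tested. Without Puberty 2 the calls were again 0 of 9, with 0% of 14209 genes called and 236 at an unadjusted p below 0.05, and 0 of 10 did not overlap, against 11.7% of all genes. With 3 animals per stage, the smallest two-sided p of an exact permutation test is 0.1, so overlap is given as a description.

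In the comparison of puberty and postpuberty, limma again called 0 of the 9 genes (0% of all genes), with 0 of the 9 and 305 of all genes at an unadjusted p below 0.05. The genes that did not overlap were 0 of 10, against 7.32% of all genes. Without Puberty 2, 0 of 9 were called (0% of all genes, 300 at an unadjusted p below 0.05) and 0 of 10 did not overlap, against 14.1%. In the comparison of prepuberty and postpuberty, which does not involve Puberty 2 except through the shared spread, limma called 0 of 9 genes (0% of all genes), with 0 of the 9 and 116 of all genes at an unadjusted p below 0.05. There 0 of 10 genes did not overlap, against 4.57% of all genes. In the fit without Puberty 2 that comparison again gave 0 calls among the 9 genes (0% of all genes), with 265 genes at an unadjusted p below 0.05.

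The direction of many differences rested on single libraries. Of the 18 differences that involve puberty (9 genes in 2 comparisons), 11 had the other sign without Puberty 2. Of all 27 differences, 6 had the other sign without Postpuberty 1, 5 without Prepuberty 2, 4 without Prepuberty 1, 4 without Postpuberty 3, 3 without Prepuberty 3 and 2 each without Puberty 1 and Puberty 3, and 0 did without Postpuberty 2. The median over the 9 genes was 0.14 for prepuberty against puberty with all 9 libraries, and the median over all genes was also 0.14. Without Puberty 2 the medians were -0.30 for the 9 genes and -0.02 for all genes. For puberty against postpuberty they were -0.24 for the 9 genes and -0.19 for all genes with all 9 libraries, and 0.07 and -0.03 without Puberty 2. For prepuberty against postpuberty the medians were 0.01 for the 9 genes and -0.05 for all genes. The comparisons share libraries and are not independent of each other.

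**Figure D2:**
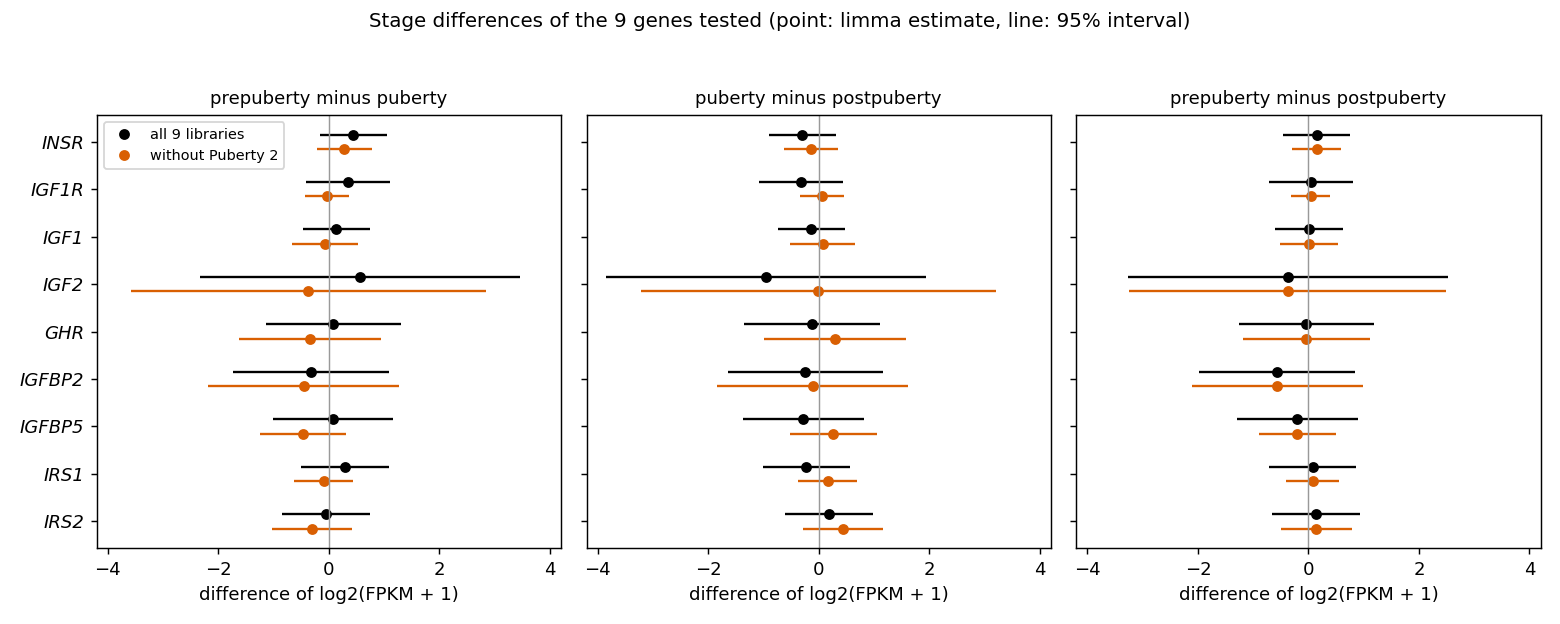
Differences of log2(FPKM + 1) between stages for the 9 genes tested, first stage minus second, as limma estimates (points) with 95% intervals (lines), for all 9 libraries in black and without Puberty 2 in orange. Every interval includes 0, those of IGF2 reach from -3.84 to 3.47, and those of IGF1R are the narrowest without Puberty 2.

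The 9 genes tested differed widely in how far single animals lay apart. The SD of log2(FPKM + 1) over the 8 libraries other than Puberty 2 was 1.55 for IGF2, which was larger than that of 99.5% of all genes tested. It was 0.864 for IGFBP2, larger than that of 95.1% of genes, and 0.615 for GHR, larger than that of 87.4%. IGFBP5 and IRS2 were above the median over all genes of 0.277, with 0.396 and 0.365. IGF1 (0.237), INSR (0.212) and IRS1 (0.207) were below it, and IGF1R (0.126) had a larger SD than only 9.18% of genes. The SD on this scale is compressed for genes with a low FPKM. As a ratio of the highest to the lowest of the 8 libraries, IGF1 with 3.02 exceeded IGFBP5 with 2.34 and IRS2 with 2.11, and GHR with 12.5 exceeded IGFBP2 with 5.40. The share of this variance that lay between the stages was 1.55% for IGF2, 1.79% for IGF1, 4.32% for IGF1R, 5.87% for GHR and 9.97% for IGFBP2, against a median of 14.3% over all genes tested. IRS1 had 10.7%, IGFBP5 23.7% and IRS2 25.9%, and INSR had the highest share of the group with 31.7%. A smaller share than that of INSR was found in 77.4% of all genes tested. With so few libraries, part of the variance lies between 3 stages even without a stage effect. Puberty 2 moved several of the shares and SDs. With all 9 libraries the shares were 45.7% for INSR, 19.2% for IGF1R, 10.9% for IRS1 and 9.08% for IGFBP2. They were 5.86% for IGF2, 5.45% for IGF1, 5.01% for IRS2, 4.48% for IGFBP5 and 0.657% for GHR, against a median of 18.9% over all genes tested. The SD with all 9 libraries was 0.387 for IGF1R and 0.380 for IRS2, against a median of 0.441.

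**Figure D3:**
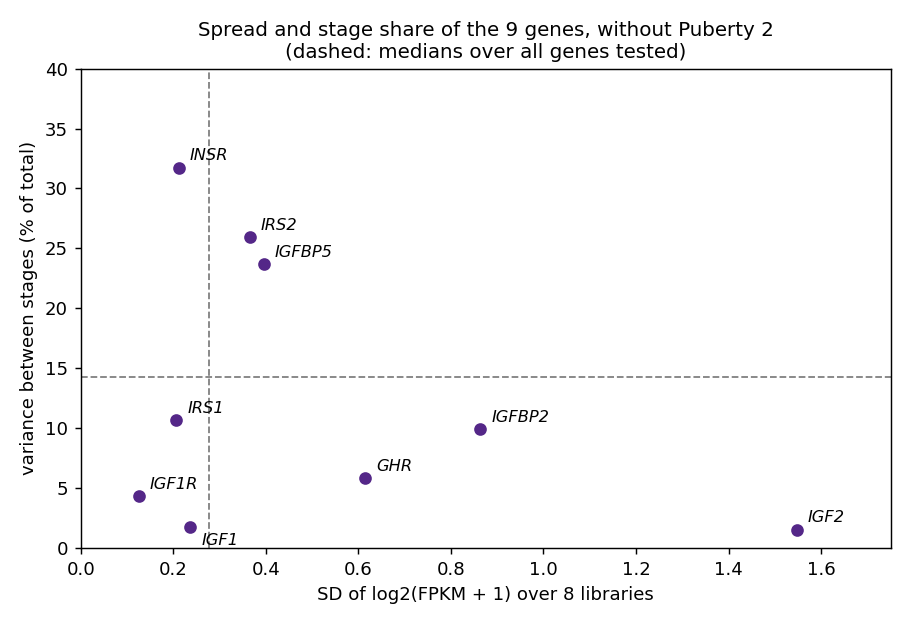
SD of log2(FPKM + 1) over the 8 libraries other than Puberty 2 (horizontal) against the percent of the variance that lay between the 3 stages (vertical), 1 point per gene, with dashed lines at the medians over all genes tested. IGF2 lies at an SD of 1.55 with 1.55% between stages, and INSR at an SD of 0.212 with 31.7%.

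The 4 libraries where IGF2 and GHR were highest were also the 4 with the highest summed FPKM of meningeal and perivascular fibroblast markers. That sum over 12 genes, all measured, was 235 in Postpuberty 1, 213 in Puberty 3, 207 in Prepuberty 1 and 121 in Postpuberty 3, between 42.4 and 53.8 in 4 others and 45.8 in Puberty 2, with COL1A2 the most abundant. By stage it ran from 48.0 to 207 in prepuberty, from 45.8 to 213 in puberty and from 42.4 to 235 in postpuberty. OGN was the only marker of this list at 0 in any library, and that library was Puberty 2. Among the 8 libraries other than Puberty 2, the same 4 led the sums of the 8 mural cell markers (99.8 to 611, TAGLN most abundant), of the 8 astrocyte markers (3889 to 9446, GFAP), of the 8 ependyma and tanycyte markers (65.2 to 291, VIM) and of the 8 microglia markers (83.4 to 390, C1QB). The mural cell sum was carried by ACTA2, MYH11 and TAGLN, while ABCC9 was lower in each of these 4 libraries than in the 4 others and PDGFRB did not follow them (all 5 named after their values were seen). The astrocyte sum was carried by GFAP, while SLC1A2 and SLC1A3 of that list, which encode glutamate transporters, were lower in these 4 libraries than in the 4 others. The ependyma and tanycyte sum was carried by VIM, while FOXJ1 had 1.44 FPKM in Postpuberty 1 and 4.54 in Puberty 1. The microglia sum of Puberty 3 (169) lay just above that of Prepuberty 3 (167). P2RY12 of that list had 6.85 FPKM in Postpuberty 3 and 19.8 in Prepuberty 3. SLC1A2, SLC1A3, FOXJ1 and P2RY12 were named after their values were seen. Neuron markers, 11 of 12 measured and led by SNAP25, were lowest in Postpuberty 1 (711), Puberty 2 (733), Prepuberty 1 (960) and Puberty 3 (1701), and highest in Postpuberty 3 (2542). The sums for endothelium (145 to 253 in the 8 libraries, 744 in Puberty 2) and oligodendrocytes (6527 to 14893) also overlapped between the stages.

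These libraries were singled out after the values were seen. Among all 14209 genes tested without Puberty 2, 11.4% had all 4 of them above the other 4. Among the fibroblast markers it was 9 of 12 genes, among the microglia markers 4 of 8 and among the mural cell markers 3 of 8. Among the endothelium markers it was 3 of 10, among the astrocyte markers 2 of 8 (AQP4 and GFAP) and among the ependyma and tanycyte markers 1 of 6 (VIM). It was 0 of 11 for neurons, 0 of 11 for hypothalamic neurons, 0 of 8 for oligodendrocytes and 0 of 6 for their precursors. For pituitary markers it was 0 of 4 and for blood 0 of 1. In the present group it was 2 of 9, but these were IGF2 and GHR, whose order defined the 4 libraries, so this count was fixed in advance. Of the pathway genes listed further on it was 12 of 81. By branch it was 4 of 10 in the leptin branch (LEPROT, SH2B3, SOCS3 and STAT3) and 2 of 4 in the growth hormone branch (CISH and STAT5A). In IGF ligand handling it was 4 of 13 (ADAM9, IGF2BP2, IGFBP6 and IGFBP7). In the other branches it was 1 of 14 receptor adaptors, 1 of 35 in PI3K, AKT, FOXO and mTOR, and 0 of 5 glucose transporters. The counts per branch are small, and their distance from the share of all genes was not tested. IGFBP2 and IGF1 shared the 3 highest of these libraries (Puberty 3, Postpuberty 1 and Prepuberty 1), while IGF1R, with its highest values in Postpuberty 1 and Prepuberty 2, did not follow them. The part of the cell makeup in the levels of IGF2, GHR, IGFBP2 and IGF1 was not tested, and in a bulk tissue fewer cells of a type and less RNA per cell cannot be told apart.

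Choroid plexus tissue, which also makes IGF2 and IGFBP2, was uneven among the libraries. The summed FPKM of its 10 measured markers was 7659 in Puberty 3, almost all of it TTR, and 17.0 to 733 in the 7 others without Puberty 2. AQP1, OTX2, KL and CLDN2 of that list were at 0 in 2 to 4 libraries each. Puberty 3 also had the highest IGF2 and IGFBP2 of all libraries. Postpuberty 1, second for IGF2 with 16.6 FPKM, had a choroid plexus sum of 56.3. Of the 9 markers of this list that were tested, 3 (AQP1, KCNJ13 and STEAP1) were highest in the same 4 libraries as IGF2. Pituitary markers summed to between 0.125 and 216 FPKM, with PRL most abundant and TSHB at 0 in every library, and their part in these levels was not tested.

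**Figure D4:**
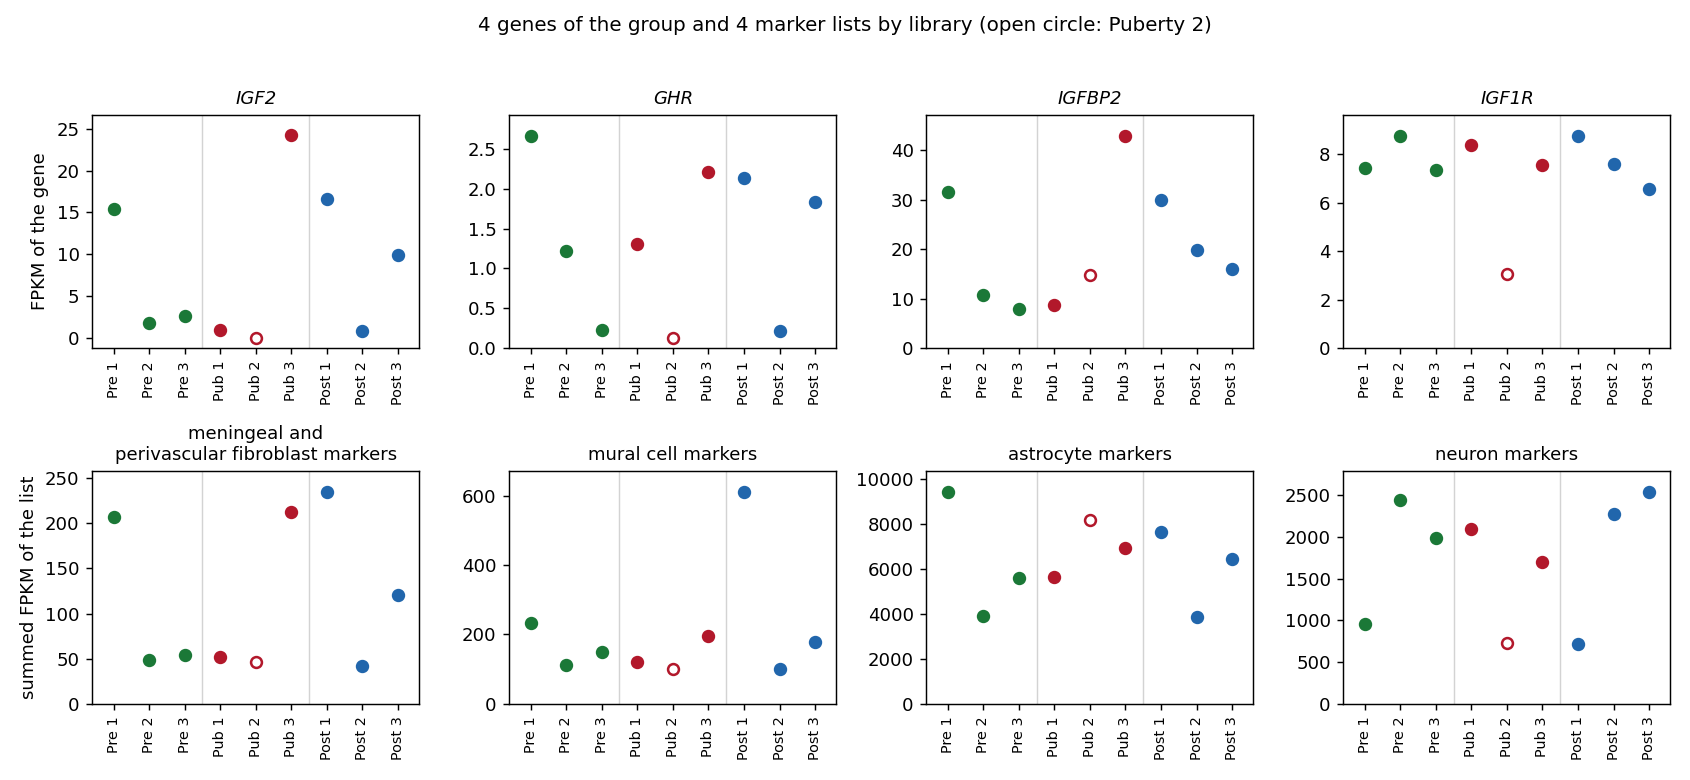
FPKM of IGF2, GHR, IGFBP2 and IGF1R (top) and summed FPKM of 4 marker lists (bottom) in each library on linear axes, 1 point per animal coloured by stage, Puberty 2 as an open circle. Prepuberty 1, Puberty 3, Postpuberty 1 and Postpuberty 3 lead for IGF2, GHR and the fibroblast and mural cell markers, and among the filled circles for the astrocyte markers (8166 in Puberty 2), and IGF1R lies between 6.56 and 8.76 in all filled circles.

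At the level of transcripts, IGF2 was read mainly from 2 annotated isoforms. XM_027959252.3 held 50.2% and XM_015102891.4 held 48.4% of the summed FPKM over the 8 libraries, although XM_015102891.4 was the larger in 5 of the 8, and the curated transcript NM_001009311.1 was listed at 0 in all. Among the 4 high libraries, XM_015102891.4 was the larger in Prepuberty 1 (11.5 against 3.83 FPKM), Postpuberty 1 (9.65 against 6.79) and Postpuberty 3 (5.65 against 4.16). In Puberty 3, where IGF2 was highest, XM_027959252.3 had 19.3 FPKM and XM_015102891.4 had 4.63, so that the latter held 19.1% there. Estimates for isoforms that share exons depend on how reads were divided between them.

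GHR had 11 annotated transcripts, of which 5 were at 0 in all libraries and XM_027979937.3 held 78.9% of the sum. This transcript had 2.64, 1.25, 2.18, 1.45 and 1.77 FPKM in Prepuberty 1, Puberty 1, Puberty 3, Postpuberty 1 and Postpuberty 3, and at most 0.0116 in the remaining libraries. XM_060400205.1 was above 0 only in Prepuberty 2, where it had 1.18 FPKM and 97.2% of the gene. What GHR signal there was in Prepuberty 3, Puberty 2 and Postpuberty 2 thus came from other transcripts, mainly XM_060400210.1 with 0.211, 0.129 and 0.202 FPKM.

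INSR was divided among 4 transcripts, led by XM_004008550.5 (44.8%) and XM_012177948.4 (37.8%). Both of these were listed at 0 in Puberty 2, whose whole INSR signal of 2.30 FPKM was given to XM_004008549.5. That transcript, named after its values were seen, had 1.37, 0.545, 0.555 and 0.330 FPKM in Prepuberty 1, Puberty 3, Postpuberty 1 and Postpuberty 3 and at most 0.154 in the 4 others apart from Puberty 2. IGF1 had 13 transcripts, 4 of them at 0 throughout, and XM_012159642.4 held 66.2%. It was also at 0 in Puberty 2, where all IGF1 was given to XM_060411608.1. IGFBP5 was nearly all XM_012110889.4 (94.7%), and IGF1R, IGFBP2, IRS1 and IRS2 each had 1 annotated transcript.

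**Figure D5:**
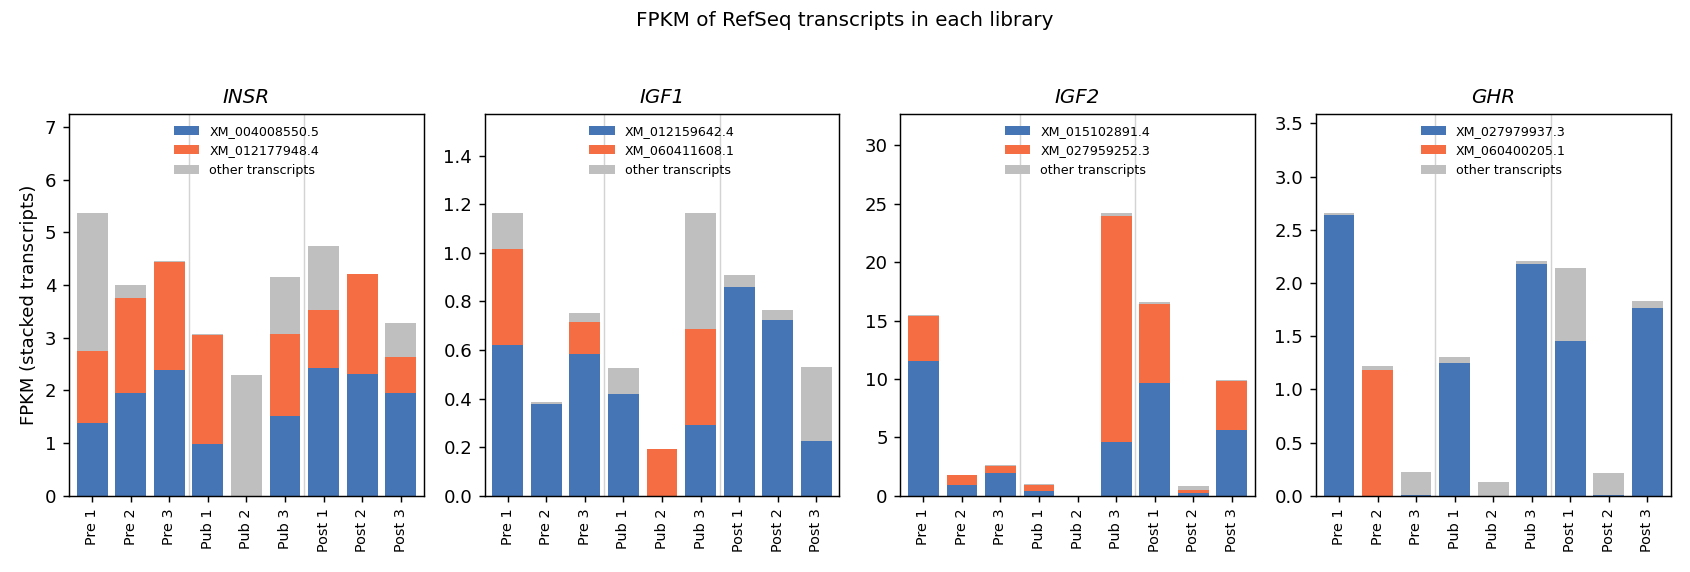
FPKM of the transcripts of INSR, IGF1, IGF2 and GHR in each library, stacked on a linear axis, with transcripts that hold at least 10% of the gene coloured and the rest in grey. The leading transcripts of INSR, IGF1 and GHR are at 0 in Puberty 2, and XM_027959252.3 holds most of IGF2 in Puberty 3 only among the 4 high libraries.

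The wider pathway was described by 91 further genes in 6 branches, all in the annotation, of which 81 passed the filter. In each of the 3 comparisons limma called 0 of the 81, with all 9 libraries and without Puberty 2, and at an unadjusted p below 0.05 there were 0, 1 and 0 with all 9 libraries and 1, 2 and 0 without Puberty 2, all of them IRS4 or AKT1S1. Of all genes tested, limma called 0%. At an unadjusted p below 0.05 by limma there were 1.82%, 2.14% and 0.81% of all genes with all 9 libraries. Without Puberty 2 there were 1.66%, 2.11% and 1.87%. The median difference over the 81 genes was 0.27 for prepuberty against puberty and -0.32 for puberty against postpuberty with all 9 libraries, and -0.01 and -0.03 without Puberty 2. For prepuberty against postpuberty it was -0.04. Over all genes tested these medians were 0.14 and -0.19 with all 9 libraries, -0.02 and -0.03 without Puberty 2, and -0.05 for prepuberty against postpuberty.

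The leptin branch (10 of 11 tested, 0 called) was led by PTPN11 and LEPROTL1, and its largest differences of prepuberty and postpuberty without Puberty 2 were -0.29 for SH2B1 (SE 0.26), an adaptor of JAK2, and -0.29 for JAK2 (SE 0.27). In the growth hormone branch (4 of 7 tested, 0 called) CISH, a feedback inhibitor, had -0.40 (SE 0.43) and STAT5A -0.26 (SE 0.26). Among 13 tested genes of IGF ligand handling (of 18, 0 called), the proteases CTSD (144 FPKM ± 19.8, n = 8) and HTRA1 (106 ± 9.61) were the most abundant. IGFBP6, a binding protein that prefers IGF2, had 35.1 ± 24.7 FPKM and a difference of -0.57 (SE 0.80), and the binding-protein-like IGFBPL1 had -0.38 (SE 0.32). IGFBP6 had 74.3, 65.5, 42.9 and 41.2 FPKM in Postpuberty 1, Prepuberty 1, Puberty 3 and Postpuberty 3, the libraries where IGF2 was high, and 13.5 to 15.7 in 4 others, but 53.0 in Puberty 2, where IGF2 was listed at 0.

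Among the receptor adaptors (14 of 15 tested, 0 called) GRB2, which links the receptors to RAS, had 27.5 FPKM ± 11.3 (n = 8) and GAB1, a docking protein, 25.8 ± 5.65. GRB2 differed by -1.23 between prepuberty and postpuberty without Puberty 2 (SE 0.54, adjusted p = 1 by limma), with 5.27 FPKM in Prepuberty 1, 28.8 and 21.1 in the other prepuberty libraries, and 33.6, 34.7 and 41.9 in postpuberty. In Puberty 2 GRB2 was at 0.0199. IRS4, a receptor substrate named after its values were seen, differed by -0.55 between prepuberty and puberty and by 0.58 between puberty and postpuberty with all 9 libraries (SE 0.37 for both, adjusted p = 0.838 and 0.780 by limma), and by -0.89 and 0.92 without Puberty 2 (SE 0.34, adjusted p = 1 for both by limma), with 2.43 FPKM in Puberty 3 and 0.0732 to 0.420 in the 7 others.

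In the branch of PI3K, AKT, FOXO and mTOR (35 of 35 tested, 0 called) RHEB, the activator of mTOR, had 52.4 FPKM ± 5.98 (n = 8) and the kinase AKT1 34.4 ± 1.95. RPTOR, a subunit of mTOR complex 1, differed by -0.49 between prepuberty and postpuberty (SE 0.40), and FOXO3, a transcription factor held back by AKT, by 0.43 (SE 0.20, adjusted p = 1 by limma). Both were listed at 0 in Puberty 2. AKT1S1, an inhibitor of mTOR complex 1 named after its values were seen, differed by -0.80 between puberty and postpuberty with all 9 libraries (SE 0.24, adjusted p = 0.780 by limma) and by -0.69 without Puberty 2 (SE 0.25, adjusted p = 1). Of the 5 glucose transporters (all tested, 0 called), SLC2A1, the carrier of the blood-brain barrier, had 38.1 FPKM ± 6.20, SLC2A8 8.80 ± 2.03 and the neuronal SLC2A3 6.69 ± 2.05, and their differences of prepuberty and postpuberty without Puberty 2 were 0.16, -0.17 and 0.18.

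The genes most like each member over the 8 libraries were sought among 12322 genes, by Pearson's r of log2(FPKM + 1), as a description without a test. Among so many genes and over only 8 libraries, the highest r is large even for unrelated genes. IGF2 was most like AK3 (r = 0.984), and GHR was most like PSAP (0.976) and ZNF789 (0.975). AK3 encodes a mitochondrial adenylate kinase and PSAP the lysosomal precursor prosaposin. IGFBP2 was nearest to ZNF277 (0.964) and CANT1 (0.963), and IGFBP5 to UAP1 (0.951) and SART3 (0.948). IGF1R was nearest to DENND4A (0.935) and ARHGEF12 (0.931), INSR to LOC114113024 (0.946) and CEP295 (0.945), and IGF1 to PROSER3 (0.953) and STMN1 (0.950). IRS1 was nearest to MED9 (0.982) and LOC114118382 (0.966), and IRS2 to ZDHHC24 (0.962) and PSMA5 (0.935). With Puberty 2 included, r with the nearest gene was 0.990 for IGF1R, 0.987 for IGF2, 0.976 for IGFBP5 and 0.813 for IRS2. It was 0.753 for IGFBP2, 0.410 for GHR, 0.112 for IRS1, 0.0115 for IGF1 and -0.0048 for INSR. For IGF1 and STMN1 it was -0.14. IGF1R had 3.07 FPKM in Puberty 2 and at least 6.56 in the 8 others, so its r of 0.990 depends strongly on 1 library.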

How the data were processed

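RNA from the hypothalamus of 9 Dolang ewes was sequenced by the authors, 3 per stage. Per the labels and the methods, reads were trimmed with Trimmomatic, aligned to ARS-UI_Ramb_v3.0 with HISAT2 and assembled with StringTie (the submitters' processing notes give Trimmomatic 0.32). The deposited values are FPKM per transcript as the authors made them. The table carries no read counts, so the depth behind a value is unknown and no counting interval is given. The authors' own tests, made with edgeR after RUVseq, were not used here.

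FPKM of NM and XM transcripts was summed per RefSeq gene (76682 of 76684 matched a gene). Genes with a mean of at least 0.5 FPKM in a stage were tested with limma 3.58.1 (R 4.3.3) on log2(FPKM + 1), with the 3 stages in 1 fit, a variance trend and Benjamini-Hochberg adjustment over all genes, after tests on simulated data. Tables and plots used Python 3.11.15, pandas 2.3.3, numpy 2.4.6 and matplotlib 3.10.9. The genes and lists were chosen with earlier results of these data known. Named were all 10 genes. In each pathway branch the named genes were the 2 with the highest mean, the 2 with the largest difference of prepuberty and postpuberty, and any called. For marker lists the most abundant gene and those at 0 in a library could be named. For each gene of the group the 2 most alike genes were named, together with transcripts holding at least 10% of its FPKM. Some genes that these rules name are not reported here. Symbols FOLR1, PRLR, TUBB3, GH1, HBA1 and HBA of the marker lists matched no gene. Alternatives covered scaling, pseudocount, filter, variance model, fits of the compared stages alone, a replicate block, the leading transcript and each library left out.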

Additional observations from a re-analysis of the deposited data

How the results depend on the processing

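With the other settings planned (scaling to equal totals or by median ratios, a pseudocount of 0.1, no filter or a filter of 1 FPKM, other variance models, only the compared stages, each library left out), limma called 0 of the tested genes of the group and 0 of all genes in every comparison. The smallest adjusted p of a gene of the group in any of them was 0.516, without Puberty 3. With the replicate block the calls were again 0 of the group and 0 of all genes. The replicate numbers are not stated to pair the animals. Deviations from the stage means correlated with r from -0.31 to 0.51 between libraries of the same number. Between libraries of different numbers r ran from -0.56 to 0.31. With 3 libraries per stage these values cannot decide whether the numbers pair animals. Genes of the group whose libraries did not overlap ranged from 0 to 2 for prepuberty and puberty, from 0 to 3 for puberty and postpuberty and from 0 to 1 for prepuberty and postpuberty as each library was left out. Without Puberty 3 they were IGF2 and INSR in the first (15.8% of all genes) and IGF1, IGFBP2 and INSR in the second (20.4%). INSR was 1 of them without Prepuberty 2 in the first (14.4% of all genes) and without Postpuberty 3 in the second (15.4%), and IGFBP2 in the third without Prepuberty 1 (13.6%). Scaling to equal totals gave 1 such gene, INSR, for prepuberty and puberty (4.87% of all genes), and shifted the median difference of all genes by 0.20 there and by -0.23 for puberty and postpuberty. Median-ratio scaling shifted the latter by 0.10.

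Of 510 repeated differences, 5 moved by more than the residual SD, all of INSR: 0.69 and -0.54 for prepuberty against puberty and puberty against postpuberty with equal totals, and 0.75, -0.91 and -0.16 for the 3 comparisons with its leading transcript, which was at 0 in Puberty 2. The cause was not tested. Signs turned in 5 of the 27 differences with the leading transcript, among them prepuberty against puberty of IGF2 (0.57 to -0.38) and of GHR (0.08 to -0.32), in 3 with equal totals, in 1 with a pseudocount of 0.1, and in 0 to 11 as each library was left out, with 11 without Puberty 2. With 3 animals per stage, 1 of the pubertal libraries apart and no read counts, differences smaller than the intervals given could not be detected, and only the RefSeq transcripts with a gene symbol were summed.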
